A study of Mus musculus with 8 samples.

Results

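Retinoic acid is made from dietary retinol in steps. Retinol enters the cell, is oxidised to retinaldehyde and then, irreversibly, to retinoic acid by the ALDH1A dehydrogenases, and the product is carried by binding proteins, destroyed by CYP26 enzymes or bound by the nuclear receptors RARA, RARB and RARG with an RXR partner. In the testis, pulses of retinoic acid commit spermatogonia to differentiation and induce *Stra8*, whose protein acts with MEIOSIN to switch on genes of meiotic prophase. The 9 genes described here are *Stra6*, a membrane receptor for retinol uptake, *Aldh1a1* and *Aldh1a2*, the dehydrogenases, *Crabp1*, a cytosolic carrier of retinoic acid, *Cyp26b1*, a degrading enzyme, the receptors *Rara*, *Rarb* and *Rarg*, and *Stra8*. They were chosen by gene symbol among the 55357 genes of the expression table, by a rule that uses no measured value, though with earlier results of these data known, and all 9 passed the expression filter (a transcripts-per-million value, TPM, of at least 1 in at least 1 library) that left 20187 genes for testing.

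RNA came from germ cell preparations of 8 C57BL/6 males killed 15 days after birth, an age at which the first wave of spermatogenesis has reached meiotic prophase. All males were homozygous for floxed *Mgat2*, which encodes an N-acetylglucosaminyltransferase needed for complex N-glycans. The 4 controls were *Mgat2*[F/F] without Cre, and the 4 *Mgat2*[F/F]:*Stra8*-iCre males (cKO) also carried a Cre transgene under the promoter of *Stra8*, active in spermatogonia. Each mouse gave 1 non-stranded library of polyadenylated RNA, so the p-values measure the spread between mice. The controls had no Cre, so an effect of the transgene itself and one of losing *Mgat2* cannot be told apart. The transgene is described as active in spermatogonia, so supporting cells in a preparation are not its target. Whether the transgene contains transcribed *Stra8* sequence that would be counted as *Stra8* is not given in the sources used here, and its part in the *Stra8* values was not tested.

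The libraries held 12584726 to 15907505 expected counts in controls and 14069373 to 15572196 in cKO. *Mgat2* itself was measured at 45.6, 21.7, 42.8 and 41.4 TPM in control replicates 1 to 4 and at 23.0, 13.4, 24.85 and 10.9 TPM in cKO replicates 1 to 4. Control replicate 2 lay below cKO replicates 1 and 3, so the targeted gene did not separate the genotypes in every library (log2 fold change -1.05 ± 0.36 SE, adjusted p = 0.47, edgeR quasi-likelihood test), although DESeq2 called it (adjusted p = 0.024). *Clu*, a Sertoli cell transcript, stood at 3754 to 4543 TPM in controls and 3831 to 4590 TPM in cKO, and all 9 Sertoli markers together at 4734 to 5780 and 4836 to 5799 TPM, so the preparations labelled germ cells also held much RNA of supporting cells. In such bulk samples, fewer cells of a type and less RNA per cell cannot be told apart.

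The promoter of *Stra8* is shown because a promoter of this gene also drives the transgene of the cKO. The full sequence of the transgene is not given in the sources used here. The forward primer that the study lists for genotyping *Stra8*-iCre matches bases near the end of the window below, so the transgene holds at least those. *Stra8* lies on the forward strand of chr6:34897098-34916279 (GRCm39) and its canonical transcript has 9 exons. The 250 bases before the canonical start, chr6:34897600-34897849, read 5′ to 3′ with a binding hexamer of the retinoic acid receptors in capitals:
Stra8: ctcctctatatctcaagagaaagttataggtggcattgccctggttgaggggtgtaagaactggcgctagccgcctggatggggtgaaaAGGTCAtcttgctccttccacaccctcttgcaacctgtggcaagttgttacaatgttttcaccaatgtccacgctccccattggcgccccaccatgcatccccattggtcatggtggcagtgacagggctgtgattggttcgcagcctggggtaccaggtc
The hexamers searched on both strands were the consensus AGGTCA, the variant that begins with G, namely GGGTCA, the variant with a T in place of the inner G, namely AGTTCA, and the variant with both of these changes, namely GGTTCA. RAR and RXR bind pairs of such hexamers as direct repeats. Windows of the same length were read before the canonical start of each of the other members, and the members that hold a hexamer are shown with 6 flanking bases on each side, the match in capitals, on the strand of the gene:
Stra8: gtgaaaAGGTCAtcttgc
Rara: tttctcTGAACTtcacac
Aldh1a1: acaataTGAACTaaccag
Cyp26b1: gcgaggTGAACTgagttt
The last 3 hold the hexamer on the opposite strand of the gene. A hexamer stood in 4 of the 9 member windows (44.4%) and in 8283 of 21770 windows of protein-coding genes (38.0%), so the letters were nearly as common elsewhere.

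No member window held a pair of hexamers with the same orientation and a spacing of 1, 2 or 5 bases (DR1, DR2 and DR5). These arrangements were found in 0.184%, 0.0919% and 0.0551% of all windows. Only the 250 bases before 1 canonical start were read for each gene, so other starts and more distant sequence were not searched. The window of *Rarb*, for example, chr14:5893686-5893935, lay inside the gene span of chr14:5650540-6041094. The other CYP26 gene of these cells, *Cyp26a1*, had a DR5 ending at the base before its start, chr19:37686218-37686240, capitals marking both hexamers and their spacer:
Cyp26a1: taaagaTGAACTTTGGGTGAACT
Of the 20 meiotic entry genes listed with *Stra8*, 5 held the letters CNCCTCAG, the motif reported for STRA8-MEIOSIN target promoters, on either strand (25%), against 6.27% of all windows. The other, shorter gene lists of the pathway ran from 0 of 9 (retinol and retinaldehyde conversion) to 2 of 6 (receptor coregulators, 33.3%). The meiotic entry list was itself drawn up around STRA8-MEIOSIN and meiotic entry. List and motif are thus not independent, and the higher share is no result of the libraries. *Meiosin* and *Spo11*, the nuclease gene that starts meiotic recombination, are shown as examples with the match in capitals:
Meiosin: tggcctCGCCTCAGgcgctc
Spo11: ggggggCGCCTCAGaggccc
Among the members, *Cyp26b1* held this motif and *Stra8* did not. A match says only that the letters are present, and no binding was measured.

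*Stra8* was strongly expressed at this age in both genotypes, and the ranges of the genotypes overlapped. The levels were 131, 149, 152 and 164 TPM in control replicates 1 to 4 (149 ± 13.8 SD) and 176, 169.7, 179 and 158 TPM in cKO replicates 1 to 4 (171 ± 8.95 SD). In TPM, only cKO replicate 4 fell below a control, the highest one, while the other 3 cKO libraries lay above all 4 controls. In normalized counts (CPM), the scale of the fold change, cKO replicate 4 (103.2) fell below control replicates 3 (106.6) and 4 (105.5). The other 3 cKO libraries lay above all 4 controls on that scale too. In log2 terms cKO exceeded control by 0.20 ± 0.09 SE, and its 95% interval ran from 0.01 to 0.38, or from 0.726% to 30.3% higher in cKO. The unadjusted p was 0.040 and the adjusted p 0.54 (edgeR quasi-likelihood test), so the difference did not pass the test over all genes. On this scale the interval of the single gene did not extend below 0.

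None of the 9 genes was called (adjusted p under 0.05) in either direction. The background was as sparse, with 8 of 20187 genes called (0.0396%), all of them lower in cKO, and with DESeq2, the tool of the original study, it was 304 genes (1.51%) and again 0 of the 9. DESeq2 gave *Rarb* no adjusted p. At an unadjusted p under 0.05, 2 of the 9 were higher in cKO, *Stra8* and *Aldh1a1*, where 8.9% of all genes tested were past that limit and 2.62% were past it and higher. The median log2 fold change of the 9 genes was 0.14, against 0.01 over all genes tested.

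**Figure D1:**
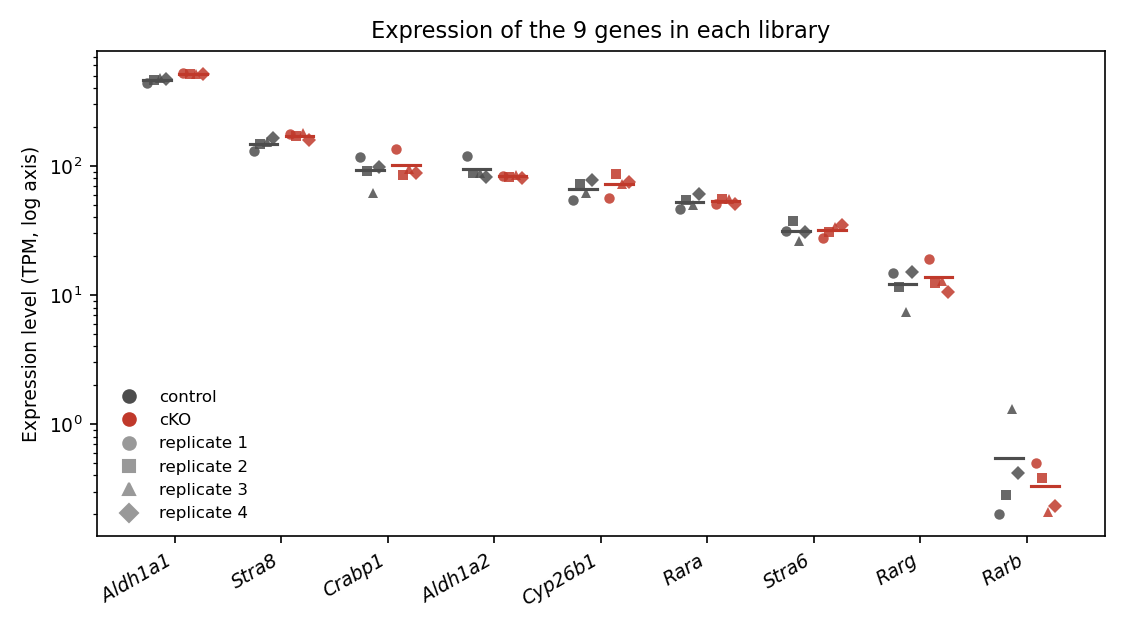
Expression level (TPM, log axis) of the 9 genes in 4 control (grey) and 4 cKO (red) libraries, ordered by mean level; each point is 1 library, its shape the replicate number, and the bar the group mean. *Aldh1a1* at 442 to 526 TPM and *Rarb* at 0.20 to 1.3 TPM mark the ends of the range, and only for *Aldh1a1* are all cKO points above all control points.

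Ordered by mean TPM over the 8 libraries, a scale per transcript length, the genes were *Aldh1a1* (493), *Stra8* (160), *Crabp1* (96.8), *Aldh1a2* (88.5), *Cyp26b1* (69.6), *Rara* (53.0), *Stra6* (31.5), *Rarg* (12.9) and *Rarb* (0.44). In the plot of levels by library, the ranges of *Aldh1a1* and *Stra8* did not meet, nor did those of *Rara* and *Stra6*, *Stra6* and *Rarg*, or *Rarg* and *Rarb*. The ranges of *Stra8* and *Crabp1* overlapped although *Stra8* was the higher in 8 of 8 libraries, and so did those of *Cyp26b1* and *Rara*. *Crabp1* exceeded *Aldh1a2* in 6 of 8 libraries and *Aldh1a2* exceeded *Cyp26b1* in 7 of 8, so the order of these neighbours was not the same in every mouse.

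Among the enzymes that make retinoic acid, *Aldh1a1* was the dominant transcript and the member whose libraries came apart by genotype. This gene, on the forward strand of chr19:20469539-20622825, encodes a retinaldehyde dehydrogenase for which Sertoli cells are the main site in testis. Its levels were 442, 464, 483 and 474 TPM in control replicates 1 to 4 and 526, 517, 518 and 518 TPM in cKO replicates 1 to 4. Every cKO library lay above every control, a separation in the higher direction that 2.47% of all genes tested also had. This amounted to a log2 fold change of 0.16 ± 0.06 SE with a 95% interval of 0.03 to 0.29, and did not pass the test (unadjusted p = 0.021, adjusted p = 0.47, edgeR quasi-likelihood test). The Sertoli markers had a median log2 fold change of 0.07, with 7 of 9 positive (51.3% of all genes tested were) and 0 called. Their part in the *Aldh1a1* values was not tested. *Aldh1a7*, a close paralog downstream on the same chromosome with which reads may be shared, stood at 22.0 ± 2.07 TPM (SD, n = 4) in controls and 23.0 ± 1.94 TPM (SD, n = 4) in cKO.

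*Aldh1a2*, which late spermatocytes express, was measured at 119, 87.7, 88.0 and 82.1 TPM in control replicates 1 to 4 and at 84.0, 82.5, 85.3 and 80.0 TPM in cKO replicates 1 to 4. Control replicate 1 stood apart from the other 7 libraries, which lay within 80.0 to 88.0 TPM. Its log2 fold change was -0.17 ± 0.12 SE (95% interval -0.43 to 0.09, adjusted p = 0.69, edgeR quasi-likelihood test), and it was -0.02 without control replicate 1. That same library had the highest summed level of 6 pachytene spermatocyte markers, 2257 TPM against 593 to 990 TPM in the other controls, and the part of these cells in its *Aldh1a2* level was not tested. *Aldh1a3* was a minor dehydrogenase at 2.84 to 4.87 TPM. As a share of the TPM of the 3 ALDH1A genes, *Aldh1a1* took 78.4% to 84.6% in controls and 85.2% to 86.0% in cKO, and the share of *Aldh1a2* was 14.6% to 21.1% and 13.3% to 14.0%. The shares do not overlap between genotypes, both genes contribute to them, and no test was run on them.

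*Stra6* and *Crabp1*, at the uptake and carrier steps, overlapped between the genotypes. *Stra6* was at 31.1, 37.2, 26.3 and 30.6 TPM in control replicates 1 to 4 and at 27.5, 30.8, 33.65 and 35.1 TPM in cKO replicates 1 to 4, and controls held both its lowest and its highest value. Its log2 fold change was 0.10 ± 0.10 SE (95% interval -0.13 to 0.32, adjusted p = 0.80, edgeR quasi-likelihood test), and it was 0.04 without control replicate 3 and 0.17 without control replicate 2. *Crabp1* was at 118, 92.1, 61.7 and 98.95 TPM in control replicates 1 to 4 and at 134.7, 85.3, 95.3 and 88.15 TPM in cKO replicates 1 to 4. The highest libraries of *Crabp1* were replicate 1 of each genotype and the lowest was control replicate 3. For *Crabp1* the log2 fold change was 0.14 ± 0.21 SE (95% interval -0.34 to 0.62, adjusted p = 0.88, edgeR quasi-likelihood test), and its sign was negative without control replicate 3 (-0.01) and without cKO replicate 1 (-0.05). *Crabp1* made up 98.2% to 100.0% of the TPM of the CRABP pair, and *Crabp2* ranged from 0 to 2.39 TPM.

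*Cyp26b1*, whose product clears retinoic acid and keeps fetal male germ cells from entering meiosis, varied more between replicates than between genotypes. It was at 54.1, 72.9, 61.5 and 77.2 TPM in control replicates 1 to 4 and at 55.95, 86.8, 72.75 and 75.35 TPM in cKO replicates 1 to 4. Replicate 1 was the lowest library in both genotypes, and cKO replicate 2 was the highest of all. The log2 fold change was 0.15 ± 0.13 SE (95% interval -0.13 to 0.43, adjusted p = 0.75, edgeR quasi-likelihood test). Leaving out single libraries moved it between 0.053 (without cKO replicate 2) and 0.25 (without cKO replicate 1), with 0.078 without control replicate 1. *Cyp26b1* made up 80.0% to 85.8% of the TPM of the CYP26 genes, and most of the remainder was *Cyp26a1*, itself a target of retinoic acid, at 10.0 to 15.8 TPM in controls and 9.21 to 18.4 TPM in cKO (log2 fold change 0.17 ± 0.18 SE).

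*Rara* was the main retinoic acid receptor transcript, with 72.4% to 85.2% of the TPM of the 3 RAR genes in a library, followed by *Rarg* with 12.58% to 26.9% and *Rarb* with 0.306% to 2.22%. *Rara*, which acts in both Sertoli and germ cells, was at 46.1, 54.8, 49.9 and 60.35 TPM in control replicates 1 to 4 and at 51.1, 55.7, 55.5 and 50.9 TPM in cKO replicates 1 to 4. All 4 cKO values fell inside the range of the controls. For *Rara* the log2 fold change was 0.05 ± 0.09 SE, and its 95% interval of -0.14 to 0.24 was among the narrowest of the members. The fold change ran from 0.01 without control replicate 1 to 0.12 without control replicate 4. *Rarg*, the receptor of differentiating spermatogonia, was at 14.8, 11.5, 7.37 and 15.1 TPM in control replicates 1 to 4 and at 19.0, 12.3, 12.8 and 10.6 TPM in cKO replicates 1 to 4. Its extremes were the same libraries as those of *Crabp1*, with control replicate 3 the lowest and cKO replicate 1 the highest. For *Rarg* the log2 fold change was 0.23 ± 0.19 SE (95% interval -0.18 to 0.64, adjusted p = 0.73, edgeR quasi-likelihood test), and it was 0.08 without control replicate 3, 0.12 without cKO replicate 1 and 0.37 without control replicate 1.

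*Rarb* was close to the limit of detection. Its expected counts were 4, 7, 14 and 6 in controls 1 to 4 and 12, 2, 2 and 5 in cKO 1 to 4, and 2 libraries were at or under 3 counts, the level up to which a signal is treated here as not told apart from 0. Only control replicate 3, at 1.3 TPM, took it past the expression filter. The log2 fold change of -0.54 ± 0.72 SE had a 95% interval from -2.12 to 1.03. It was -0.16 without control replicate 3, -0.26 and -0.28 without cKO replicates 2 and 3, -1.30 without cKO replicate 1 and -1.52 on replicates 2 to 4, so a difference between genotypes was not detectable at this depth. The libraries were not stranded, and 31.2% of the exonic bases of *Rarb* are shared with *Top2b* on the opposite strand, so reads of the 2 genes there cannot be told apart. The partners *Rxrb* and *Rxra* are widely expressed: *Rxrb* made up 75.7% to 83.1% of the TPM of the RXR genes, at 55.6 to 70.9 TPM in controls and 67.4 to 73.7 TPM in cKO (log2 fold change 0.13 ± 0.07 SE).

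**Figure D2:**
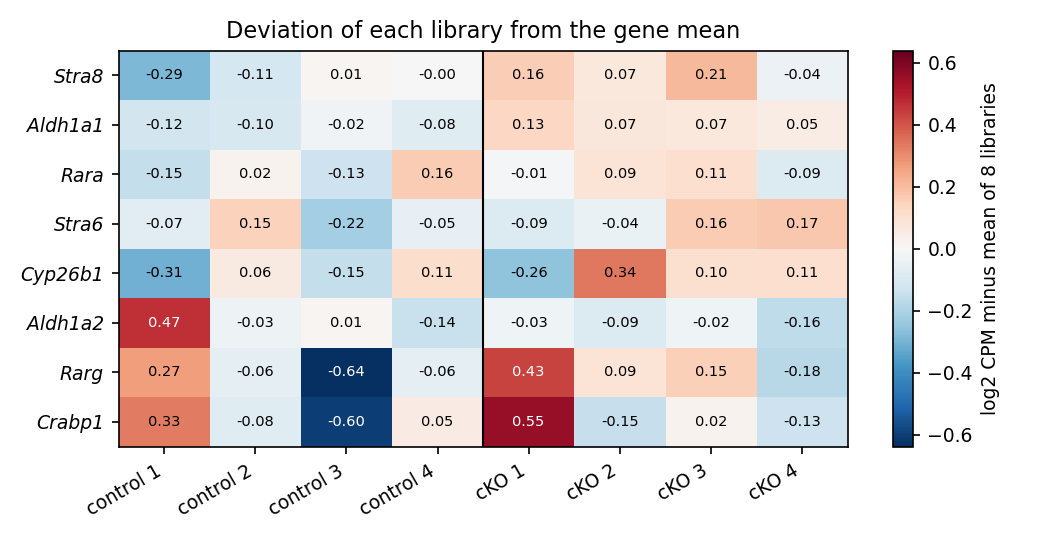
Deviation of normalized log2 counts-per-million values (CPM) from the mean of the 8 libraries for the members other than *Rarb*, which had too few counts, with 1 column per library and a line between the genotypes. *Aldh1a1* is negative in all 4 controls and positive in all 4 cKO libraries, while *Rarg* and *Crabp1* are lowest in control 3 (-0.64 and -0.60) and highest in cKO 1 (0.43 and 0.55).

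Among the 8 members with ample counts, the profiles over the libraries in the map of deviations were nearest for *Stra8* and *Aldh1a1* and next for *Rarg* and *Crabp1*. The root mean square difference of centred log2 CPM was 0.089 between *Stra8* and *Aldh1a1* and 0.117 between *Rarg* and *Crabp1*, over 8 libraries, with each library's depth and cell makeup common to all genes. *Rara* was almost as near to *Stra8* (0.124) and to *Aldh1a1* (0.126). Over the 10391 genes with a mean CPM of at least 10, the 5 nearest to the profile of *Stra8* were *Magea13* (0.036), *Ndufb11* (0.046), *Sri* (0.047), *Snx7* (0.047) and *Cd47* (0.048), where the median gene was at 0.203. *Stra8* deviated from its own mean by 0.146 on the same scale, which is also its difference from a gene that does not vary at all. The measure is not scaled to the size of the deviations, so genes that vary little come out near each other. The closest, *Magea13*, was at 141 TPM in controls and 164 TPM in cKO on average.

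The wider pathway was read from lists of 64 genes, members included, of which 58 passed the filter. None of the 58 was called, and 5 had an unadjusted p under 0.05 (8.9% of all genes tested did). Among these 5 were *Stra8*, *Aldh1a1*, *Stag3* and *Spo11*. Log2 fold changes were positive for 38 and negative for 20, with a median of 0.08, where 51.3% of all genes tested were positive. DESeq2 called 0 of the 58 as well. In the list of retinol uptake and storage, the gene with the highest level was *Dgat1*, which esterifies retinol among other lipids, at 69.1 to 87.3 TPM in controls and 67.1 to 81.0 TPM in cKO. *Adh5*, an alcohol dehydrogenase, was the highest of the retinol conversion list, at 109 to 139 TPM in controls and 127 to 146 TPM in cKO. *Fabp5*, a second carrier, was at 52.5 to 74.3 TPM in controls and 66.2 to 81.4 TPM in cKO.

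By step, the median log2 fold change was 0.09 over 5 genes of retinol uptake and storage, 0.14 over 7 of retinol conversion, 0.16 over 3 dehydrogenases, 0.19 over 3 carriers, 0.16 over 2 degrading enzymes, 0.07 over 5 receptors and -0.02 over 6 coregulators. All these medians but the last were positive, and none of the genes behind them was called. The largest difference in the first 2 steps was that of *Rdh11*, a retinol dehydrogenase, with 24.2 to 62.2 TPM in controls and 18.4 to 32.6 TPM in cKO (log2 fold change -0.76 ± 0.35 SE, adjusted p = 0.59, edgeR quasi-likelihood test). Its highest library was control replicate 1, as for *Aldh1a2*.

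**Figure D3:**
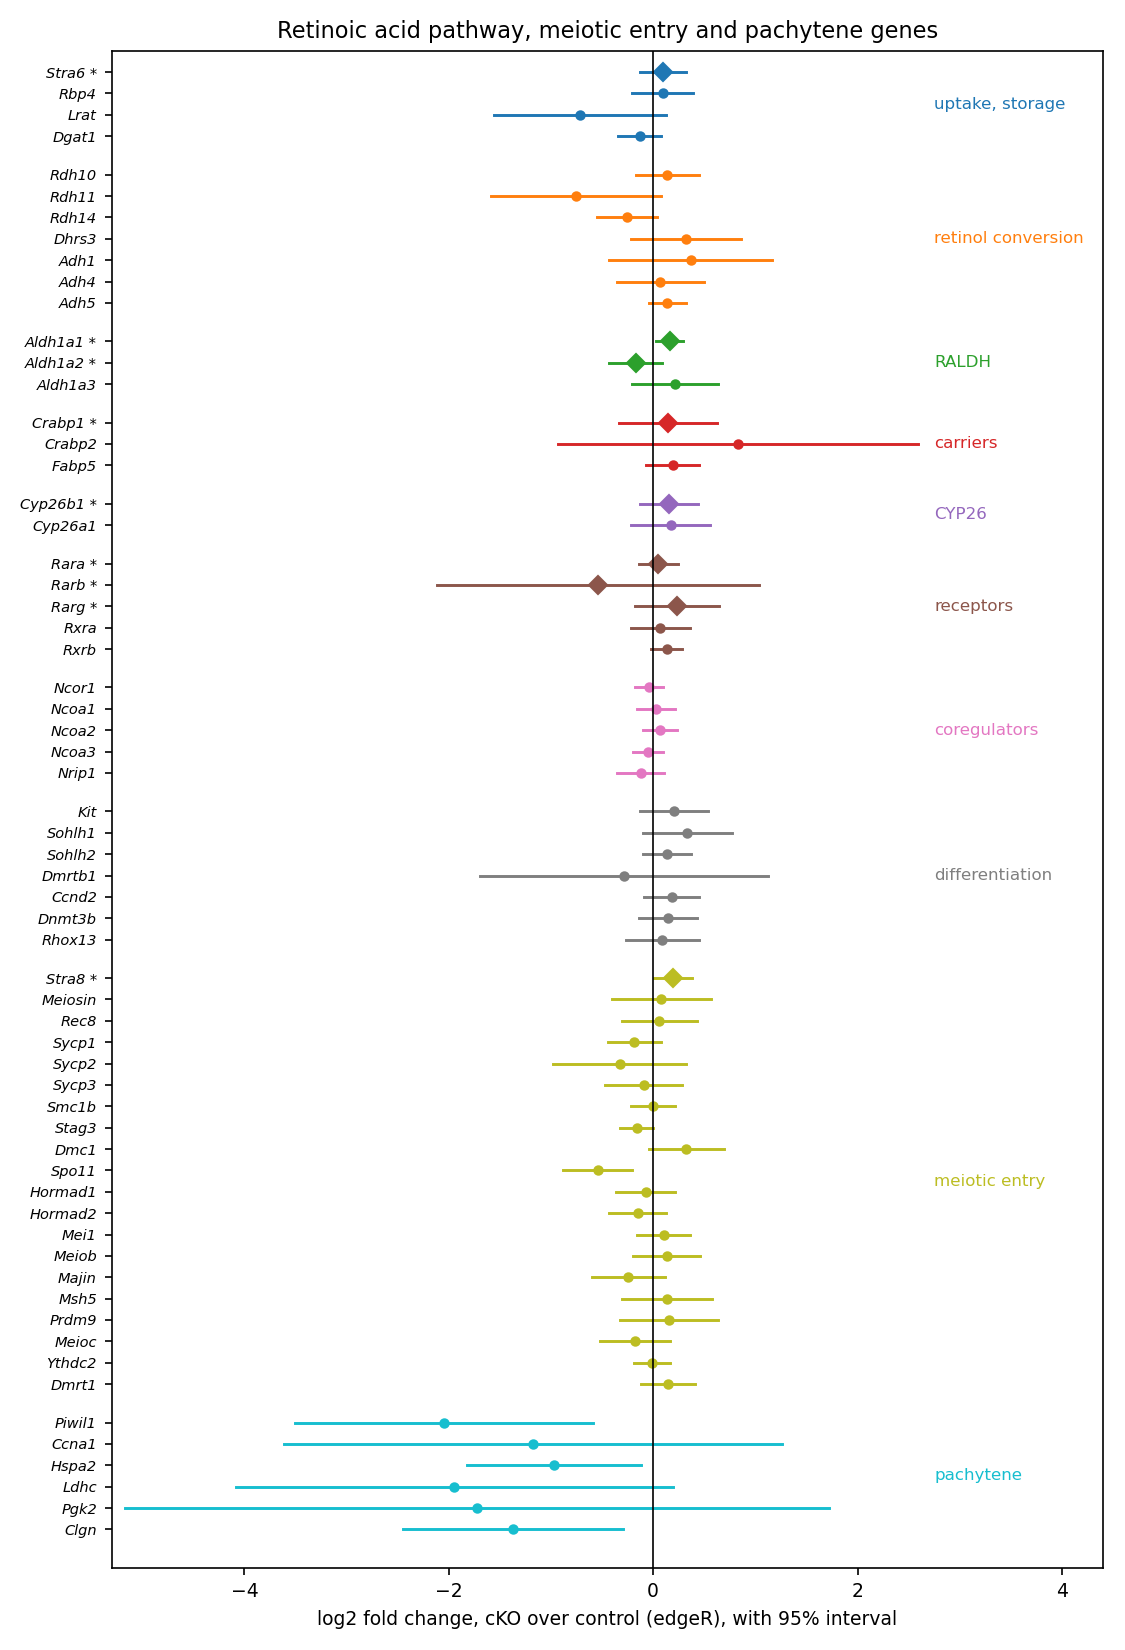
Log2 fold change (cKO over control, horizontal axis) with its 95% interval from edgeR for tested genes of the retinoic acid and meiotic entry lists and for 6 pachytene markers; diamonds and asterisks mark the 9 members and colours the lists. The pathway intervals of *Stra8*, *Aldh1a1*, *Stag3* and *Spo11* do not cross 0, and all 6 pachytene markers lie below 0, with wide intervals.

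Downstream of the signal, the spermatogonial differentiation list had 6 of 7 genes positive (51.3% of all genes tested were), a median log2 fold change of 0.15 and 0 called. *Kit*, the receptor gained by differentiating spermatogonia, was at 28.4 to 36.9 TPM in controls and 33.4 to 46.2 TPM in cKO, and *Sohlh1*, a transcription factor of the same cells, at 31.6 to 48.7 and 38.8 to 70.0 TPM. *Dmrtb1*, which coordinates the switch from mitosis to meiosis, had the highest mean TPM of this list. In control replicate 4 and in cKO replicates 2 to 4 another gene of the list was higher. *Dmrtb1* was at 178.5 TPM in control replicate 1 and 115 TPM in cKO replicate 1, and at 36.9 to 50.4 TPM in the other 6 libraries. Replicate 1 therefore stood apart in both genotypes, and the log2 fold change of *Dmrtb1* was -0.29 ± 0.59 SE with all libraries and 0.42 without control replicate 1.

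The 20 genes of meiotic entry were balanced, with 10 positive and 10 negative log2 fold changes, a median of -0.00 and 0 called. *Meiosin*, the partner of *Stra8*, was at 53.0, 92.75, 91.5 and 90.6 TPM in control replicates 1 to 4 and at 61.8, 89.3, 100.4 and 90.3 TPM in cKO replicates 1 to 4. It was again replicate 1 of each genotype that stood apart, here as the lowest. The log2 fold change of *Meiosin* was 0.08 ± 0.21 SE (95% interval -0.40 to 0.56). *Sycp3*, a component of the synaptonemal complex and the highest of this list, was at 328 to 586 TPM in controls and 336 to 484 TPM in cKO. *Spo11* was at 23.5, 29.8, 36.4 and 24.75 TPM in control replicates 1 to 4 and at 18.5, 18.95, 19.9 and 27.0 TPM in cKO replicates 1 to 4. The cKO values of replicates 1 to 3 were below all controls. Its log2 fold change was -0.54 ± 0.16 SE (95% interval -0.88 to -0.20, unadjusted p = 0.0045, adjusted p = 0.35, edgeR quasi-likelihood test). *Stag3*, a meiotic cohesin subunit, had a log2 fold change of -0.16 ± 0.07 SE (adjusted p = 0.56, edgeR quasi-likelihood test). It was at 169 to 183 TPM in controls and 138 to 155 TPM in cKO. In normalized CPM the genotypes overlapped for *Stag3*, with cKO replicate 3 at 325 and control replicate 4 at 312. *Dmc1*, the meiotic recombinase, had a log2 fold change of 0.33 ± 0.16 SE (adjusted p = 0.60, edgeR quasi-likelihood test).

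The markers of the next stage differed more in size than any member. All 6 pachytene markers had a negative log2 fold change, as 9817 of 20187 genes tested did, and their median was -1.55. Of the 6, 0 were called by edgeR (3 had an unadjusted p under 0.05) and 1, *Piwil1*, by DESeq2, and on replicates 2 to 4 alone edgeR called 1. *Piwil1*, a piRNA-binding protein of pachytene spermatocytes, was at 271, 91.9, 134 and 76.4 TPM in control replicates 1 to 4 and at 64.8, 26.5, 27.5 and 21.7 TPM in cKO replicates 1 to 4 (log2 fold change -2.05 ± 0.61 SE, adjusted p = 0.44, edgeR quasi-likelihood test). No control library was below any cKO library, a separation in the lower direction that 3.03% of all genes tested also had. *Clgn*, a chaperone of these cells, had a log2 fold change of -1.37 ± 0.45 SE and *Hspa2* one of -0.97 ± 0.35 SE, with replicate 1 the highest of each genotype for both. The summed level of the list was 593 to 2257 TPM in controls and 247 to 744 TPM in cKO, while that of the 20 meiotic entry genes was 1779 to 2476 and 1828 to 2128 TPM.

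**Figure D4:**
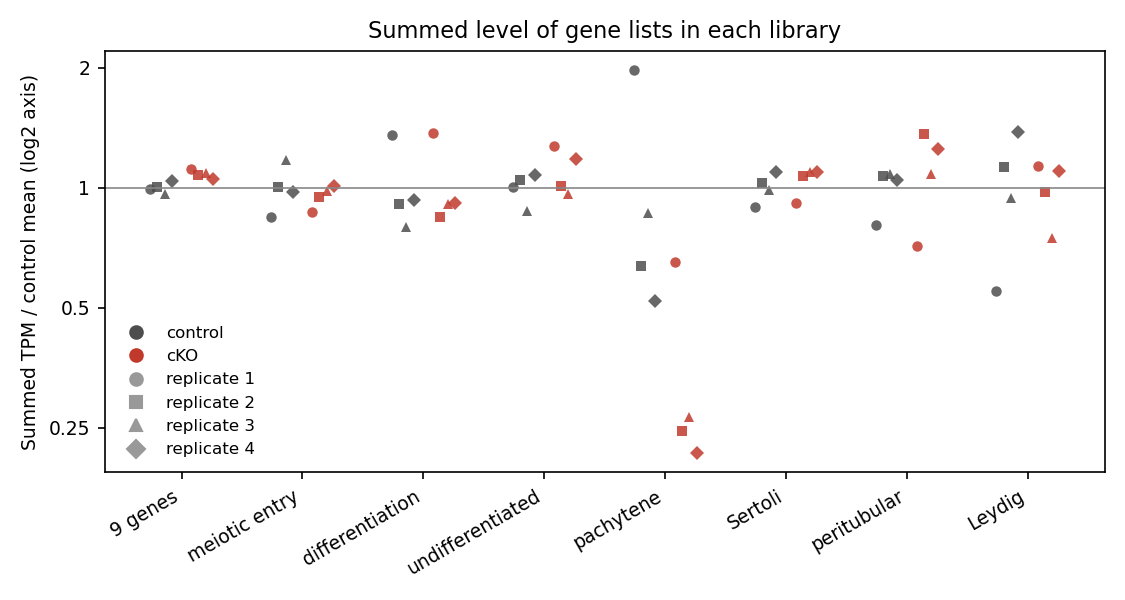
Summed TPM of gene lists in each library divided by the mean of the 4 controls (log2 axis), with controls in grey, cKO in red and the replicate number as the shape. The 9 members together stay close to 1, but every cKO sum lies above every control sum (931 to 1004 TPM in controls, 1016 to 1075 TPM in cKO). *Aldh1a1* is the largest part of these sums and the only member whose own cKO libraries all lie above the controls. Of all genes tested, 2.47% separate in that direction, but no such share was computed for sums, and no test was run on them. The pachytene sums spread widest, with replicate 1 the highest of each genotype.

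Replicate 1 moved with several values above, so the comparison was repeated without it in either genotype, a choice made after the data were seen. With replicates 2 to 4 alone, 855 genes were called (4.24% of those tested), and still 0 of the 9 members. The log2 fold change of *Stra8* was then 0.12 and the median over the 9 members 0.12, against 0.14 with all libraries. In the pathway lists 3 genes were called, *Rdh11* and *Spo11* lower and *Dmc1* higher in cKO.

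Markers of other cells were summed to see whether they moved with genotype. The 7 tested of 8 markers of undifferentiated spermatogonia had a median log2 fold change of 0.18 with 0 called, and their summed level was 101 to 125 TPM in controls and 112 to 147 TPM in cKO. Within that list *Id4* was lower in every cKO library (14.3 to 16.8 against 18.9 to 25.9 TPM, adjusted p = 0.31 by the edgeR quasi-likelihood test and 0.038 by DESeq2) and *Etv5* was higher in every one (log2 fold change 0.24 ± 0.10 SE), where 5.5% of all genes tested did not overlap in one direction or the other. The summed level of 4 peritubular myoid markers was 366 to 492 TPM in controls and 325 to 621 TPM in cKO, that of 6 Leydig markers 35.9 to 89.7 and 48.6 to 73.8 TPM, and that of 3 fibroblast-like markers 67.6 to 110 and 94.5 to 140 TPM. *Dcn*, in the last list, had a log2 fold change of 0.55 ± 0.16 SE and did not overlap between the genotypes (adjusted p = 0.38, edgeR quasi-likelihood test). Macrophage markers summed to 10.0 to 27.1 TPM in controls and 19.0 to 25.9 TPM in cKO, and endothelial markers to 4.63 to 8.68 and 4.06 to 8.62 TPM. With all 8 libraries edgeR called none of the markers of these cells, and none stood at 0 in all libraries. On replicates 2 to 4 it called 2 of 3 fibroblast-like markers, 1 of 4 peritubular myoid markers and 1 of the markers of undifferentiated spermatogonia. Their part in the values of the 9 genes was not tested.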

How the data were processed

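Germ cell RNA of 8 mice at 15 days, 4 per genotype, was analysed. The authors aligned paired reads to mm39 (GRCm39) with STAR 2.7.9a and deposited RSEM 1.3.3 expected counts and TPM, without a filter, and the submitters' notes also name DESeq2 1.38.3. Of the deposited expected counts, 6.37% were not whole, and all were rounded to whole numbers. The deposited TPM are scaled within a library, and gave the filter (at least 1 in at least 1 library) and the levels shown.
Genotypes were compared with edgeR 4.0.16 (TMM, robust quasi-likelihood test, R 4.3.3), adjusted by Benjamini-Hochberg over all genes tested at 0.05, after a test on simulated data. Alternatives used DESeq2 1.42.0, limma 3.58.1, other normalizations and filters, a replicate block and the omission of each library. The floor of 3 counts covers counting error only. The 95% intervals are those of the log2 fold change between genotypes and reflect the spread between mice. Promoters and positions came from GRCm39 and its GENCODE annotation, with all 9 members matched by Ensembl identifier. Figures were drawn with matplotlib 3.10.9.
Members and lists were chosen with earlier results of these data known. Named were the members, *Mgat2*, the highest gene by TPM of each pathway list, called pathway genes and the 5 genes nearest to *Stra8*. Other named genes, such as *Stag3*, *Spo11*, *Rdh11*, *Dmc1*, *Cyp26a1* and single markers, were picked after their values were seen. Some genes that these rules name are not reported here.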

Additional observations from a re-analysis of the deposited data

Results flagged for a closer look

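In groups of 4 libraries, 7 of 54 groups held a library farther from its nearest neighbour, relative to the range, than Dixon's 95% limit, and chance alone gives about 1 in 20. All 7 were replicate 1 of a genotype. The cKO replicate 1 library was the highest of its genotype for *Aldh1a1* (526.17 TPM) and for the sums of the spermatogonial differentiation list (391.07 TPM) and the pachytene markers (744.38 TPM), and the lowest for the Sertoli marker sum (4836.07 TPM). Control replicate 1 was the highest control for *Aldh1a2* (118.75 TPM) and the lowest for the sums of peritubular myoid markers (365.86 TPM) and endothelial markers (4.63 TPM).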

How the results depend on the processing

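None of the 9 members was called under any of the 19 alternatives. *Rarb* was absent from filterByExpr and was given no adjusted p by DESeq2, so it could not be called there. *Stra8* stayed positive throughout, between 0.12 and 0.24 on the log2 scale, with adjusted p from 0.091 to 0.82. The number of genes called was 8 and became 304 with DESeq2, 0 with limma-trend at either pseudocount on TPM (1 and 0.1), 18 with upper-quartile factors, 17 with library totals only, 35 with no filter, 0 with filterByExpr, 855 on replicates 2 to 4 and 0 to 32 when a library was left out. Pathway genes called were 0, and 3 on replicates 2 to 4. A block for the replicate number raised the calls to 1464 in edgeR and 1223 in DESeq2, with 3 pathway genes in each, and the edgeR block called 5 of 6 pachytene, 2 of 3 fibroblast-like and 1 undifferentiated spermatogonia markers. The labels give both genotypes the same numbers, but no pairing is stated, so the numbers were not taken to pair the mice. Deviations of same-numbered libraries correlated at 0.53, 0.14, 0.039 and 0.20 for replicates 1 to 4, and controls 2 and 3 correlated better with another number. The deviations were taken from the mean of each genotype, which replicate 1 shifts. The correlations therefore cannot decide whether replicates 2 to 4 are paired. Signs of named genes turned when single libraries were left out, with ranges of -0.048 to 0.29 for *Crabp1*, -0.73 to 0.42 for *Dmrtb1*, -0.21 to 0.055 for *Sycp3*, -0.030 to 0.18 for *Rxra* and -0.074 to 0.21 for *Meiosin*. The cause of these shifts was not tested. Depth limits *Rarb*, with 2 to 14 counts a library.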
